A study of Mus musculus with 19 samples.

Results

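The comparison set regulatory CD4+ T cells that did not carry the IL-2 reporter signal, titled GFP-RFP+, against conventional CD4+ T cells that did, titled GFP+RFP-. Its members were the 5 arrays whose titles carry GFP-RFP+ and the 5 whose titles carry GFP+RFP-, 10 of the 19 arrays used here; the other 9 were 5 GFP-RFP- and 4 GFP+RFP+ arrays. All cells were taken out of the lymphoid organs (spleen and lymph nodes) of C57Bl/6 mice, adult females of the genotype Tg IL-2-GFP x FOXP3mRFP, so both populations carried both reporters: GFP reports IL-2 and mRFP reports FOXP3. The labels name GFP-RFP+ cells T CD4(+) Regulatory T cells and GFP+RFP- cells IL-2p T CD4(+) cells, although their cell type entry calls every sample conventional, and no treatment was given. They do not state how many cells or animals went into a sample, and the p-values therefore speak only of how these samples varied, a variation that can be technical. RNA was amplified by a global PCR before labelling with Cy3, and each sample filled 1 single-colour Agilent array.

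Regulatory T cells, or Treg, are CD4+ T cells that restrain other T cells, and the transcription factor Foxp3 fixes their identity. They make little IL-2 themselves and take it up through a receptor that includes the alpha chain Il2ra (CD25), whereas activated conventional cells are the main source of this growth factor. The comparison therefore places the cells labelled as the suppressors beside the cells labelled as the IL-2 source, and both reporters differ between them: a difference cannot be assigned to one reporter alone.

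The starts of the array probes that read the genes described most closely are shown so that the measured transcript stretch can be identified. Each line gives the first 30 bases of a 60-base probe, 5′ to 3′, from the array's own annotation, with no part marked; positions are those of build mm9.
Foxp3: attatgtgttggagtgtgcctgaacagctc
Il2: atggatagccttctgtcaaagcatcatctc
Msl3: gcctgtcttgtttgagattttacagccata
Timm9: gggaacctacaataaacttacagaaacctg
Exosc8: aagaggctcaagtaaccagccagttcattg
Rnf2: ttgatagaaggaagagacttccggtaccat
Jmjd6: gcggtggtgcctcttcccaacaaacacacc
Itgb1: tggacgcttactgcaggaaagagaacagtt
Foxp3 was read at chrX:7172301-7172360 on the plus strand, and Il2 at chr3:37020012-37020071 on the minus strand. Msl3 was read at chrX:165092103-165092162, Timm9 at chr12:72226471-72226530 and Exosc8 at chr3:54535935-54536079, all on the minus strand; the Exosc8 interval is longer than its probe. Rnf2 was read at chr1:153316987-153317046 and Jmjd6 at chr11:116702517-116702576, both on the minus strand, and Itgb1 at chr8:131246349-131246408 on the plus strand. Exon and UTR annotation of that build was not used here.

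Levels below are log2 signals relative to the array's own 75th percentile signal, so that 0 is the level of a bright probe, and readings near -10 or -11 lie below what the scanner software called well above background. A gene was called where the limma p, adjusted over 20613 genes by the Benjamini-Hochberg method, was under 0.05. The 5 GFP-RFP+ arrays were dimmer than the 5 GFP+RFP- arrays. Their 75th percentile signal was 7021 ± 3110 intensity units (SD, n = 5) against 12760 ± 3017 (SD, n = 5), with p = 0.0159 in an exact two-sided permutation test and 0.0317 adjusted over the 2 array measures, where 0.00794 is the smallest p the design allows. GFP-RFP+ arrays detected 29.6% ± 6.78 (SD, n = 5) of their probes well above background and GFP+RFP- arrays 36.9% ± 4.29 (SD, n = 5), a difference of -7.27 percentage points with an exact permutation p of 0.0873. Array 3 of GFP-RFP+ stood apart within its group, with 39.39% of probes detected and a 75th percentile of 11710, while the other 4 detected 22.01% to 31.68%. When each array's detected percent entered the limma fit as a covariate, 8 genes were called, all among the 44 described below, and 6 of the 35 calls with a usual gene symbol kept their call. GFP-RFP+ array 3, the bright one, read Msl3 and Exosc8 at -10.90 and -11.06, not well above background. It read Tmem50a, Itgb1 and Tspan14 at -3.33, -3.90 and -4.36, well above background. How much of the calls comes from array brightness was not tested.

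**Figure D1:**
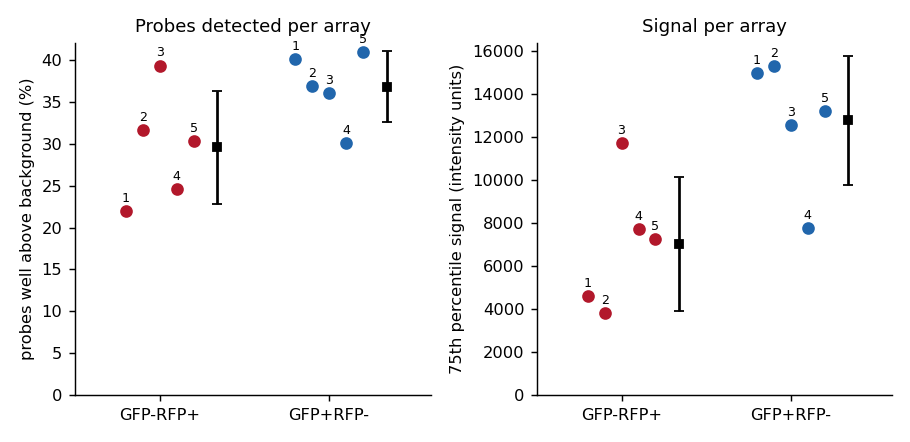
Percent of probes well above background (left) and 75th percentile of the probe signal in intensity units (right) for each of the 10 arrays, with the replicate number beside each point and the mean ± SD as a black square. The signal of 4 of the 5 GFP-RFP+ arrays lies below that of all GFP+RFP- arrays, and GFP-RFP+ array 3 lies among the GFP+RFP- arrays.

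Foxp3 itself did not separate the labelled Treg from the labelled IL-2 producers. The GFP-RFP+ arrays read -5.91, -5.96, 0.25, -8.64 and -6.48 for Foxp3 in replicates 1 to 5, and the GFP+RFP- arrays read -7.87, -7.83, -7.17, -6.89 and -8.41. GFP-RFP+ array 3 was bright and array 4 was the lowest of all 10, so the groups overlapped. The difference was 2.29 ± 1.10 (SE), with an interval from -0.04 to 4.62 and an adjusted limma p of 0.392, and the probe was well above background on all 10 arrays. Without GFP-RFP+ array 3 the difference was 0.89 (adjusted limma p 0.473). Within slides the difference was 4.69 on slide 1 (2 arrays against 2), 1.40 on slide 2 (1 against 2) and 0.86 on slide 3 (2 against 1). The other FOXP3 reporter population, GFP+RFP+, averaged -6.13 over 4 arrays and the double-negative cells -7.89 over 5. The scaled Foxp3 levels thus ran with the RFP label on average and against it in 1 array. Apart from GFP-RFP+ array 3 they were dim, and a dim level rises where the array's 75th percentile is low. That percentile was 4586, 3828 and 7266 on GFP-RFP+ arrays 1, 2 and 5, and 7780 to 15300 on the GFP+RFP- arrays. On the GFP+RFP+ arrays it was 4141 to 5966. How much of the higher average comes from this scaling was not tested. The name "GFP-RFP+" below means the arrays so labelled.

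Il2, the cytokine that the GFP reporter stands for, was detected, that is well above background, on 2 of 5 GFP+RFP- arrays but 0 of 5 GFP-RFP+ arrays. The GFP+RFP- arrays read -1.51, -10.31, -10.44, -10.28 and -3.58, and the GFP-RFP+ arrays read -9.97, -8.68, -11.14, -11.36 and -10.22. Replicates 1 and 5 of GFP+RFP- thus carried Il2 signal, and the other 3 lay among the GFP-RFP+ arrays. Il2 was also detected on 2 of 5 GFP-RFP- arrays (-4.42 and -2.57) and on 1 of 4 GFP+RFP+ arrays (-5.93). The group means were -10.27 in GFP-RFP+ and -7.22 in GFP+RFP-, the latter averaging detected and undetected readings. The fitted difference was -3.05 ± 1.96 (SE), with an interval from -7.18 to 1.08 and an adjusted limma p of 0.522; within slides it was -4.58, 1.62 and -7.21, and without GFP+RFP- array 1 it was -1.62. Xcl1, a chemokine that draws cross-presenting dendritic cells, had the smallest p of the T cell cytokine list. It was detected on 4 of 5 GFP+RFP- arrays, at -2.26, -1.77, -3.23 and -4.05, and not on GFP+RFP- array 4, at -11.22. All 5 GFP-RFP+ arrays read -9.75 or lower for Xcl1 and none was well above background. Its means were -10.62 and -4.50, at least 15.9-fold lower where the bound uses the lowest signal well above background on each dim array, but the adjusted limma p was 0.205.

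**Figure D2:**
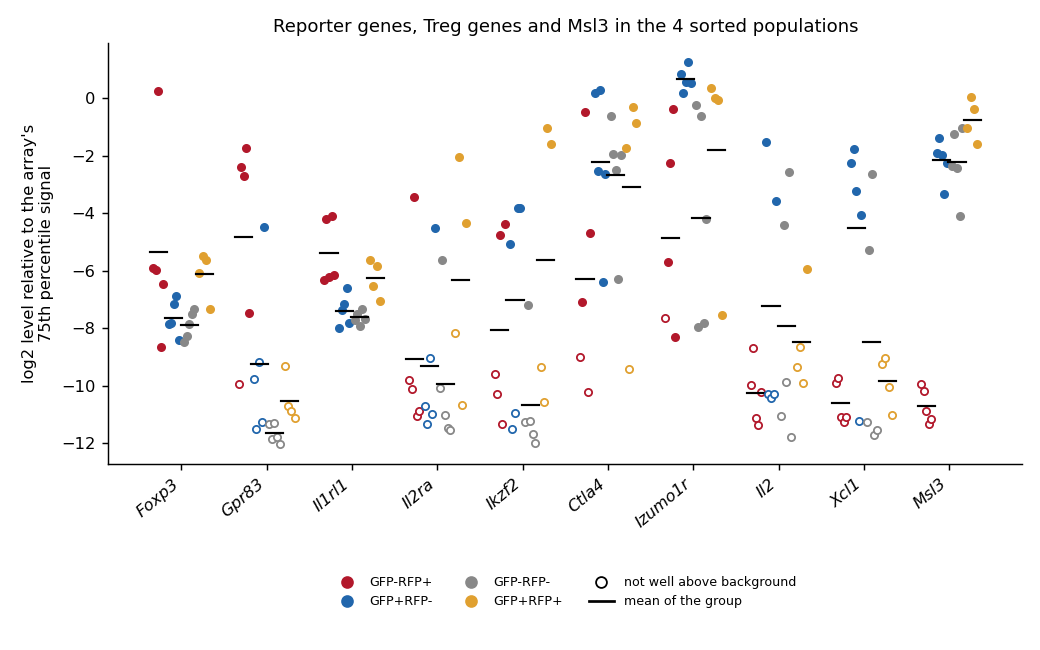
Log2 level relative to the array's 75th percentile signal (vertical) of 10 genes in each array of the 4 sorted populations; filled points were well above background, open points were not, and black lines are group means. Foxp3 is bright in a single GFP-RFP+ array, Il2 is detected on 2 GFP+RFP-, 2 GFP-RFP- and 1 GFP+RFP+ arrays, and Msl3 is undetected only in the GFP-RFP+ arrays among the populations drawn.

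Across all genes, 44 of 20613 were called (0.213%), and all 44 were lower in GFP-RFP+. No gene was called higher. Of the 20613 genes, 1007 were higher and 1670 lower at an unadjusted limma p under 0.05. The unadjusted counts of the gene lists below are to be read beside that share of all genes. The lists were chosen with earlier results of these data known. Their shares of called genes therefore do not test whether a list holds more calls than other genes. The smallest adjusted limma p among the higher genes was 0.0618, for Fam178b, which is named here after its values were seen. The difference of all genes had a median of -0.14, and 11142 genes (54.1%) were lower in mean. Of the 44 calls, 43 were detected in every GFP+RFP- sample, while 12 were detected on no GFP-RFP+ array, 13 on 1, 10 on 2, 5 on 3 and 3 on 4. The calls were thus mostly of genes read at background on most GFP-RFP+ arrays, and their fitted differences rest partly on levels near background. In these bulk samples, fewer cells with a transcript and less of it per cell cannot be told apart. The groups did not overlap in 32 of the 44; over all genes 214 (1.04%) did not overlap with GFP-RFP+ lower and 138 (0.669%) with GFP-RFP+ higher.

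**Figure D3:**
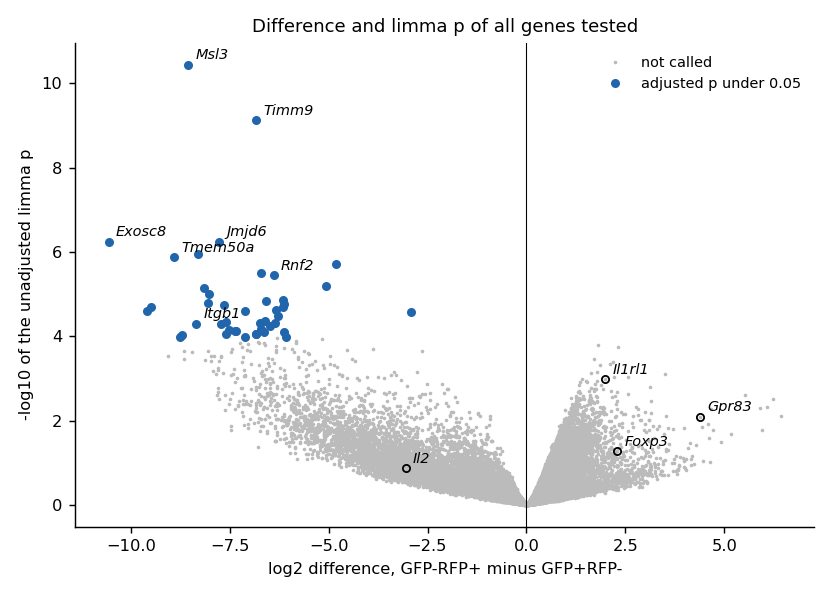
Log2 difference of GFP-RFP+ minus GFP+RFP- (horizontal) against -log10 of the unadjusted limma p (vertical) for the 20613 genes tested. The 44 called genes, in blue, all lie on the left, led by Msl3 and Timm9; Foxp3, Il2, Gpr83 and Il1rl1 are ringed and were not called.

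The number of calls rested on single arrays. Leaving out 1 of the 10 arrays gave between 11 and 213 calls. Without GFP-RFP+ array 3 there were 213 (6 higher), and without GFP+RFP- array 4, the dimmest of its group, there were 173 (6 higher); both sets held all 44. Within slide 1, the only slide with 2 arrays of each group, limma called 0 genes, with 1410 at an unadjusted p under 0.05. The 35 calls with a usual gene symbol kept their lower sign under each alternative analysis that gave a value, and 9 of them stayed called whichever single array was left out: Msl3, Timm9, Exosc8, Jmjd6, Tspan14, Tmem50a, Rnf2, Ndufa3 and Azi2.

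Msl3 had the smallest p. It encodes the chromodomain subunit of the MSL complex, which acetylates histone H4. The GFP+RFP- arrays read -1.91, -1.37, -1.95, -3.32 and -2.25, and the GFP-RFP+ arrays read -9.94, -10.19, -10.90, -11.33 and -11.16. No GFP-RFP+ array was well above background, and the gap between the groups was wide. With the main processing Msl3 was at least 80.8-fold lower in GFP-RFP+, with means of -10.71 and -2.16. Its fitted difference was -8.54 ± 0.57 (SE), with an adjusted limma p of 7.38e-07. The highest adjusted limma p with 1 array left out was 7.46e-06. Over the alternative analyses the difference ran from -9 to -4.74, so the fold bound holds for the main processing only. The difference was -8.49 on slide 1, -7.85 on slide 2 and -8.99 on slide 3. In the other 2 populations Msl3 averaged -2.22 (GFP-RFP-, 5 of 5 arrays detected) and -0.74 (GFP+RFP+, 4 of 4 detected).

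Rnf2, another chromatin gene, encodes RING1B, the ubiquitin ligase of Polycomb repressive complex 1. It was read at -5.04, -2.73, -5.13, -1.96 and -6.26 on the GFP+RFP- arrays and at -9.82, -10.15, -10.96, -11.14 and -10.98 on the GFP-RFP+ arrays. Every GFP+RFP- array was above every GFP-RFP+ array, and none of the latter was well above background. Rnf2 was at least 19.3-fold lower, with means of -10.61 and -4.22 and an adjusted limma p of 0.0081. Its mean in GFP+RFP+ was -10.04 with 0 of 4 arrays detected, and in GFP-RFP- it was -5.87 with 5 of 5. The GFP+RFP+ arrays were also dim, with a 75th percentile of 4141 to 5966, against 11650 to 17260 on the GFP-RFP- arrays. Here and for the genes below, a low level in both RFP+ populations thus runs with array brightness as well as with the label. Jmjd6, a Jumonji-family oxygenase that hydroxylates lysines of nuclear proteins, was a called gene detected on most arrays of both groups. It read 0.68, -1.25, -0.92, -0.24 and 0.01 in GFP+RFP- and -7.17, -6.78, -9.0, -8.93 and -8.66 in GFP-RFP+. There 4 of 5 arrays were well above background, but arrays 4 and 5 lay near their lowest detected signals of -9.10 and -8.90. Jmjd6 averaged -7.675 in GFP+RFP+ (3 of 4 arrays detected) and -1.33 in GFP-RFP- (5 of 5). Its difference was -7.76 ± 1.00 (SE), with an adjusted limma p of 0.00296. Unlike for Tmem50a or Itgb1, GFP-RFP+ array 3 was the lowest of its group for Jmjd6.

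Several called genes handle RNA. Exosc8, a ring subunit of the RNA exosome that degrades and trims RNA from its 3′ end, had the largest difference. The GFP+RFP- arrays read -0.66, -0.42, -1.43, 1.04 and 0.57, near the 75th percentile of the array, and the GFP-RFP+ arrays read -9.98, -10.29, -11.06, -11.27 and -11.09. The groups did not overlap, and 0 of 5 GFP-RFP+ arrays were well above background. Exosc8 was at least 319-fold lower, with means of -10.74 and -0.18 and an adjusted limma p of 0.00296. It was also low on the dim GFP+RFP+ arrays (-7.70, 1 of 4 detected) and high on the brighter GFP-RFP- arrays (-0.16, 5 of 5). Of 10 measured exosome genes 1 was called, Exosc8, against 0.213% of all genes, in a list chosen with earlier results of these data known. In mean 6 were lower and 4 higher, and the median was -1.53 beside -0.14 for all genes. Trnau1ap and Secisbp2, which both serve the insertion of selenocysteine into proteins, were lower on their brightest probes, with differences of -8.06 ± 1.36 (SE; adjusted limma p 0.022) and -7.72 ± 1.44 (SE; adjusted limma p 0.0354). Trnau1ap was at least 57.6-fold lower on that probe (means -10.71 and -2.65), and the other probes of both genes, with differences of 0.85 and 0.22 for Trnau1ap and 0.16 for Secisbp2, were detected on only 1 or 2 arrays of a group, leaving little room for a decrease. Their calls were lost under 4 and 7 of the single omissions.

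Other called RNA genes were Dbr1, the lariat debranching enzyme, Cwc15 of the activated spliceosome, Tardbp (TDP-43), Mex3c, Zc3hav1 (the zinc finger antiviral protein), Ranbp2 of the nuclear pore and Trmt10c of mitochondrial tRNA processing. Their differences on the brightest probe ran from -7.38 (Dbr1) to -6.08 (Zc3hav1). Other probes gave -1.21 (detected on 4 GFP-RFP+ and 5 GFP+RFP- arrays) and -4.87 (1 and 4) for Tardbp. They gave -1.85 (4 and 4) for Zc3hav1 and -0.85 (0 and 2) for Cwc15. In contrast with Exosc8, the brightest probes of these genes were detected on 1 to 4 of the 5 GFP-RFP+ arrays. The list of spliceosome genes had 0 of 21 measured called in limma (4 lower at an unadjusted p under 0.05), with 17 lower and 4 higher in mean and a median of -1.76; Sf3b6, a branch-site protein of the U2 particle, had the smallest p among them (means -10.40 and -3.65, at least 28.9-fold lower, detected on 0 and 4 arrays, adjusted limma p 0.248).

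Besides Trmt10c, the called genes with mitochondrial products were Timm9, Ndufa3, Ndufs1 and Mrpl57. Timm9 encodes a small chaperone that escorts carrier proteins across the intermembrane space. Its brightest probe read -4.64, -5.28, -3.46, -2.60 and -3.35 in GFP+RFP- and -9.94, -10.14, -11.12, -11.30 and -10.99 in GFP-RFP+. The groups were far apart, with no GFP-RFP+ array well above background on this probe. That probe was at least 24.8-fold lower, with means of -10.70 and -3.87, a difference of -6.83 ± 0.56 (SE) and an adjusted limma p of 7.58e-06. A second Timm9 probe, detected on only 2 GFP-RFP+ arrays and 1 GFP+RFP- array, gave 2.40, with means of -6.81 and -9.21. The first probe was undetected on the dim GFP+RFP+ arrays as well (-10.46, 0 of 4) and detected on the brighter GFP-RFP- arrays (-4.60, 5 of 5).

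Ndufa3 and Ndufs1 encode subunits of respiratory complex I. Ndufa3 read -0.76, -4.47, -1.72, 0.09 and -1.73 in GFP+RFP- and -8.21, -7.75, -8.07, -9.42 and -8.69 in GFP-RFP+, and the groups did not overlap. Its difference was -6.71 ± 0.98 (SE), with an adjusted limma p of 0.00791, and a second probe gave -6.20. Ndufs1 was uneven within GFP-RFP+: array 3, at -0.15, lay among the GFP+RFP- arrays, which read -0.58 to 0.98, while array 2 was at -10.14. Its difference was -7.12 ± 1.42 (SE), with an adjusted limma p of 0.0498, and its call was lost under 8 of the single omissions. Of the 24 measured members of the respiratory chain list 1 was called, Ndufs1, against 0.213% of all genes. In mean 22 were lower and 2 higher, with a median of -1.85 beside -0.14 for all genes. Under the scaling on all probes 16 were lower, with a median of -0.83 beside 0.87 for all genes. The lower members included the succinate dehydrogenase subunit Sdhb (-5.16, adjusted limma p 0.193).

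Ap4m1, the medium chain of the AP-4 adaptor that sorts cargo at the trans-Golgi network, read -2.24 to -0.50 on the GFP+RFP- arrays and -11.20 to -9.87 on the GFP-RFP+ arrays, with none of the latter detected. It was at least 164-fold lower (means -10.63 and -1.14; adjusted limma p 0.0223). Mgat2, a Golgi enzyme on the way to complex N-glycans, was at least 113-fold lower (means -10.43 and -1.67; adjusted limma p 0.0498). Gypc, a sialoglycoprotein that ties the membrane to its skeleton, was at least 166-fold lower (means -10.71 and -1.12; adjusted limma p 0.0239). For Ap4m1, Mgat2 and Gypc no GFP-RFP+ array was well above background and all 5 GFP+RFP- arrays were. The calls of Ap4m1 and Gypc were lost under 6 and 7 of the 10 single omissions, and that of Mgat2 under 8.

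Itgb1, the beta-1 chain of the integrins that bind fibronectin and VCAM-1 and a gene of effector and memory cells, was read at -2.19, -1.06, -1.02, 0.55 and -1.26 in GFP+RFP-. The GFP-RFP+ arrays read -9.98, -10.21, -3.90, -11.42 and -11.23. Array 3 was the only GFP-RFP+ array with signal well above background, and it still lay below every GFP+RFP- array. The difference was -8.35 ± 1.55 (SE), with an adjusted limma p of 0.0354; a second probe gave -8.24. The call was lost under 8 of the 10 single omissions, with a highest adjusted limma p of 0.101. No other integrin chain of the list was called. Itgb2, the beta-2 chain of LFA-1, read 0.55 to 1.98 in GFP+RFP- and -9.57 to -1.33 in GFP-RFP+, without overlap, and its difference of -8.04 ± 1.72 (SE) had an adjusted limma p of 0.0663.

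Tspan14, a tetraspanin that partners the sheddase ADAM10, and Tmem50a, a small transmembrane protein, showed the same single bright GFP-RFP+ array. Tspan14 read -9.81, -10.19, -4.36, -11.05 and -10.94 in GFP-RFP+ and -1.93 to 0.67 in GFP+RFP-, a difference of -8.30 ± 1.12 (SE) with an adjusted limma p of 0.00461. Tmem50a read -9.99, -10.02, -3.33, -11.43 and -10.54 in GFP-RFP+ and -0.85 to 0.50 in GFP+RFP-, a difference of -8.90 ± 1.22 (SE) with an adjusted limma p of 0.00461. Neither gene's groups overlapped. Pecam1 (CD31), an adhesion and inhibitory receptor, had a different bright GFP-RFP+ array: it was array 2, at -3.25, above the lowest GFP+RFP- array at -3.30, and the other 4 read -9.70 or lower. Its difference was -7.65 ± 1.30 (SE), with an adjusted limma p of 0.022, and on slide 2 it was -1.81; the call was lost under 5 of the single omissions. Tspan14 and Pecam1 were also undetected on all 4 of the dim GFP+RFP+ arrays (-10.23 and -9.91) and detected on all 5 of the brighter GFP-RFP- arrays.

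**Figure D4:**
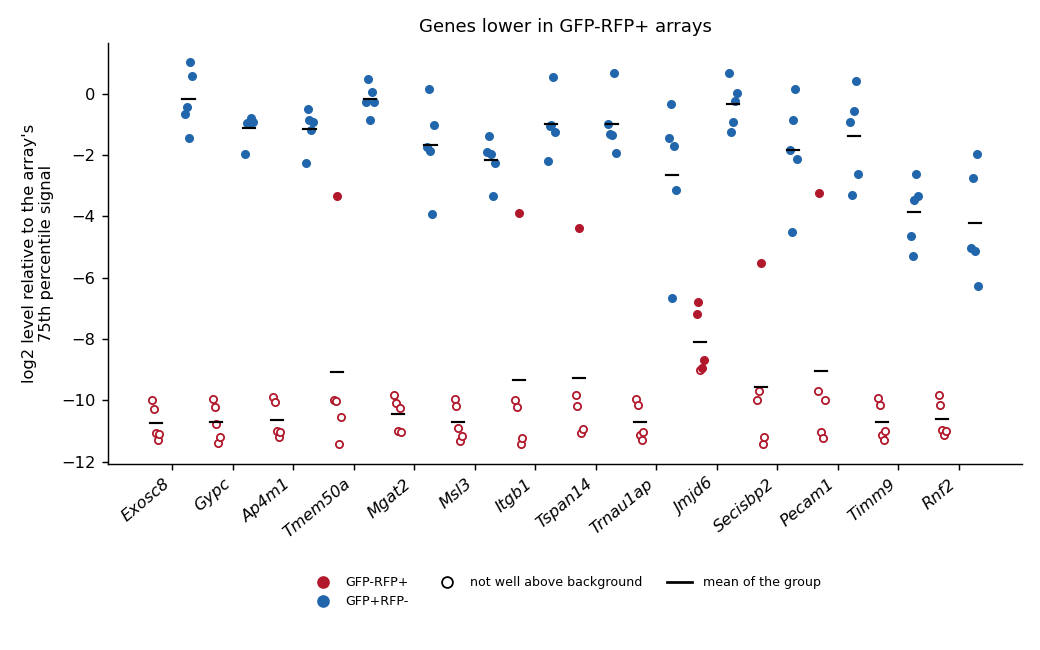
Log2 level relative to the array's 75th percentile signal (vertical) in 5 GFP-RFP+ arrays (red) and 5 GFP+RFP- arrays (blue). Drawn are Timm9, Rnf2 and the 12 largest called differences among genes with a usual symbol detected on every GFP+RFP- array. Open points were not well above background and black lines are group means. Most red points are open and lie near -10 or -11, the single filled red point of Tmem50a, Itgb1, Tspan14 and Secisbp2 is GFP-RFP+ array 3, and Jmjd6 is the gene with most red points filled.

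Among interferon-stimulated genes 2 of 14 measured were called, Xaf1 and Ifit1, against 0.213% of all genes. Xaf1, a partner of the apoptosis inhibitor XIAP, read -6.01 on GFP-RFP+ array 5 and -9.81 or lower on the other 4, against -3.58 to -0.68 in GFP+RFP-; its difference was -7.60 ± 1.48 (SE; adjusted limma p 0.0461). Ifit1, which binds foreign RNA, read -2.71 on GFP-RFP+ array 3 and -9.38 or lower on the other 4, against -3.01 to -1.24 in GFP+RFP-, so its groups overlapped; its difference was -6.84 ± 1.34 (SE; adjusted limma p 0.0461). Xaf1 lost its call under 7 and Ifit1 under 8 of the single omissions. Of the 14, 13 were lower in mean and 1 higher, with a median of -1.99; under the scaling on all probes, which moves the median of all genes to 0.87, the list's median was -0.97 and 11 were lower. Azi2, an adaptor of the kinase TBK1 upstream of interferon and no member of the list, was at least 7.71-fold lower (means -10.62 and -5.55; 0 and 5 arrays detected; adjusted limma p 0.013).

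The remaining called genes with a usual symbol were Cnp, Hmgn1, Psmd8, Plekha3, Ndfip1, Ralgapb, H2-T10 and Paxbp1, with differences from -7.60 (Cnp) to -6.13 (Paxbp1). Psmd8 encodes a regulatory subunit of the proteasome; it was at least 25.1-fold lower (means -10.55 and -3.85; adjusted limma p 0.0425), but GFP+RFP- array 4 was also at background for it, at -10.58. Ndfip1, which recruits Nedd4-family ligases that restrain T cell activation, had a difference of -6.36 ± 1.18 (SE; adjusted limma p 0.0354). Hmgn1, a nucleosome-binding protein, had a difference of -7.52 ± 1.44 (SE; adjusted limma p 0.0431) on its brightest probe and of -1.77 on another. A second probe of Ndfip1, detected on 1 GFP-RFP+ and 4 GFP+RFP- arrays, gave -3.05. Second probes of Paxbp1 (-3.04) and Xaf1 (-1.66) were detected on 0 and 2 arrays, and that of Azi2 (0.44) on none. A further 9 calls were array entries without a usual symbol.

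Counted over any probe of a gene, 33 of 35019 gene names (0.0942%) passed the background flag in each of the 5 GFP+RFP- samples and in no GFP-RFP+ sample, and 0 the other way round. Exosc8 was the 1 member of a described list among them, and 9 of the 33 were called. Allowing 1 array of the brighter group to miss gave 210 names detected on 4 or 5 arrays of GFP+RFP- alone and 20 of GFP-RFP+ alone. The GFP-RFP+ arrays also detected fewer probes in all, a mean of 29.6% against 36.9%. The part of this in these counts was not tested.

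Genes that define Treg were not called in either direction. Of 21 measured genes of the Treg signature limma called 0 (3 higher and 1 lower at an unadjusted p under 0.05); 12 were higher and 9 lower in mean, with a median of 0.25 beside -0.14 for all genes. Gpr83, an orphan receptor of Treg, read -9.95, -2.39, -2.69, -1.71 and -7.48 in GFP-RFP+ and -9.78, -11.51, -9.17, -11.27 and -4.47 in GFP+RFP-. Signal passed the background flag on 4 of 5 arrays in GFP-RFP+ and 1 of 5 in GFP+RFP-, and on none of the 9 arrays of the other populations. The groups overlapped through GFP-RFP+ array 1 and GFP+RFP- array 5, and the difference of 4.40 ± 1.47 (SE) had an adjusted limma p of 0.247. Il1rl1 (ST2), the IL-33 receptor of tissue Treg, was higher on every GFP-RFP+ array (-6.32, -4.19, -6.23, -4.08 and -6.16) than on any GFP+RFP- array (-7.99, -7.36, -7.17, -6.60 and -7.83). Its difference was 1.99 ± 0.51 (SE) with an adjusted limma p of 0.131, and its other probes were undetected in both groups. The Il1rl1 levels are dim and relative to the array's 75th percentile, 4586 on GFP-RFP+ array 1 and 7780 to 15300 on the GFP+RFP- arrays. How far this scaling sets the groups apart was not tested.

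Other Treg genes gave values in either direction. Izumo1r, folate receptor 4 of Treg and follicular helper cells, read -7.64, -5.71, -2.27, -0.37 and -8.31 in GFP-RFP+ and 0.18 to 1.27 in GFP+RFP-, without overlap and with the lower level in the cells labelled regulatory. Its difference was -5.54 ± 1.89 (SE), with an adjusted limma p of 0.251. Ctla4, an inhibitory receptor of Treg and activated cells, was detected on 3 GFP-RFP+ and 5 GFP+RFP- arrays, with means of -6.30 and -2.22 and an adjusted limma p of 0.397. Il2ra was detected on 1 array of each group, GFP-RFP+ array 3 at -3.43 and GFP+RFP- array 5 at -4.53, and its difference of 0.25 ± 1.85 (SE; adjusted limma p 0.961) changed sign without GFP-RFP+ array 3 (-1.15). Ikzf2 (Helios) had a difference of -1.04 ± 2.16 (SE; adjusted limma p 0.855), which changed sign within slide 1 (0.83). Tnfrsf18 (GITR) had a difference of 1.50 ± 1.55 (SE; adjusted limma p 0.693). The intervals of Il2ra (-3.65 to 4.16) and Tnfrsf18 (-1.76 to 4.76) span large differences both ways, so equal levels are not shown.

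The IL-2 receptor and STAT5 list had 0 of 19 called in limma (2 higher and 1 lower at an unadjusted p under 0.05). In mean 12 were lower and 7 higher, with a median of -0.72. Under the scaling on all probes 6 were lower and the list's median was 0.30, beside 0.87 for all genes. Il4ra, the IL-4 receptor chain, had a difference of 1.26 ± 0.43 (SE; adjusted limma p 0.251), and Stat5b, the transcription factor downstream of the IL-2 receptor, of -4.08 ± 1.35 (SE; adjusted limma p 0.245). Foxp3's partner transcription factors had 0 of 17 called in limma (6 lower unadjusted), 15 lower and 2 higher in mean and a median of -2.02; with normexp background correction 10 were lower and 7 higher with a median of -0.15. Nfatc2, the calcium-activated factor that pairs with Foxp3, was detected on GFP-RFP+ array 3 alone of its group (-1.51) and on 5 of 5 GFP+RFP- arrays on its brightest probe, with a difference of -7.47 ± 1.84 (SE; adjusted limma p 0.122). Another Nfatc2 probe, detected on 5 and 4 arrays, gave 0.77. Irf4, a factor of effector Treg, was detected on GFP-RFP+ array 2 alone (-0.42) and on all 5 GFP+RFP- arrays, with an adjusted limma p of 0.333. Genes known to be repressed in Treg had 0 of 13 called in limma (3 lower unadjusted), 12 lower and 1 higher in mean and a median of -1.69. With the scaling on all probes 8 were lower and 5 higher, with a median of -0.68 beside 0.87 for all genes. With normexp the list's median was -0.32, beside 0.36 for all genes. Lef1, a factor of naive T cells, had a difference of -3.82 ± 1.45 (SE, adjusted limma p 0.295).

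The other T cell lists held few calls. Effector and memory genes had 1 of 18 called (Itgb1), against 0.213% of all genes, 16 lower and 2 higher in mean and a median of -0.91. Cd44, the hyaluronan receptor of antigen-experienced cells, was detected on all 10 arrays and did not overlap, at -5.45 to -2.15 in GFP-RFP+ and -1.66 to -0.07 in GFP+RFP-. Its difference was -2.96 ± 0.86 (SE), with an adjusted limma p of 0.194. Chemokine receptors and integrins had 2 of 16 called (Itgb1 and Pecam1), against the same 0.213%, and a median of -0.89. Suppressive molecules (9 measured, median -2.13), T cell cytokines (10, -1.43), early T cell receptor response genes (15, -1.18), co-inhibition and follicular helper genes (15, -2.18), TNF receptor superfamily costimulators (13, -1.62), naive and recirculating cell genes (15, -2.07) and T cell receptor signalling genes (20, -0.13) held 0 calls each in limma. At an unadjusted limma p under 0.05 they held 1, 3, 2, 4, 3, 4 and 4 lower genes and 0 higher. Over all 20613 genes 1670 were lower and 1007 higher at that limit. With normexp, where the median of all genes was 0.36, the list medians were smaller in size: -0.37 for suppressive molecules, -0.23 for cytokines (5 lower and 5 higher), -0.69 for early response genes, -0.60 for co-inhibition, -0.86 for TNF receptors, -1.44 for naive cell genes and -0.11 for T cell receptor signalling, and -0.33 for the exosome. Tnfrsf14 (HVEM) did not overlap, at -11.01 to -8.13 against -5.85 to -2.16, with an adjusted limma p of 0.177.

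Medians of the housekeeping lists ran from -2.66 to 0.22. The proteasome list had the lowest, -2.66, with 17 of 20 lower in mean and 0 called in limma (4 lower at an unadjusted p under 0.05); Psma6, a subunit of the core particle, read -10.03 to -2.48 in GFP-RFP+ and -0.75 to -0.12 in GFP+RFP-, without overlap (adjusted limma p 0.08). Cell cycle genes had 0 of 15 called in limma (2 lower unadjusted) and a median of -1.73. Mki67, the proliferation marker Ki-67, read 0.38 on GFP-RFP+ array 3 and -9.88 or lower on the other 4, against -8.66 to 1.34 in GFP+RFP- (adjusted limma p 0.337). Cytosolic ribosome genes had 0 of 24 called in limma (0 also unadjusted), 17 higher and 7 lower in mean and a median of 0.22; under quantile normalization 5 were higher and 19 lower, so no direction is given. Rpl10a did not overlap, at 1.16 to 3.03 in GFP-RFP+ and -0.10 to 0.97 in GFP+RFP- (difference 1.39 ± 0.67, SE; adjusted limma p 0.391). Glycolysis genes had 0 of 14 called in limma (3 lower and 1 higher unadjusted) and a median of -0.46; Aldoa, a glycolytic aldolase, did not overlap either, at 2.42 to 3.58 and 1.76 to 2.28 (difference 0.99 ± 0.33, SE; adjusted limma p 0.25). Cell survival genes had 0 of 16 called in limma (1 lower unadjusted) and a median of -0.36. The scaling on all probes shifts the differences of all genes alike and moves their median from -0.14 to 0.87. Under it the medians of glycolysis (0.55), cell survival (0.66) and T cell receptor signalling (0.89) were above 0. So were those of effector and memory (0.11) and chemokine receptor and integrin genes (0.13). The sign of these medians thus depends on the scaling, and no direction is given for these lists. Except for T cell receptor signalling, they lay below the median of all genes under both scalings.

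**Figure D5:**
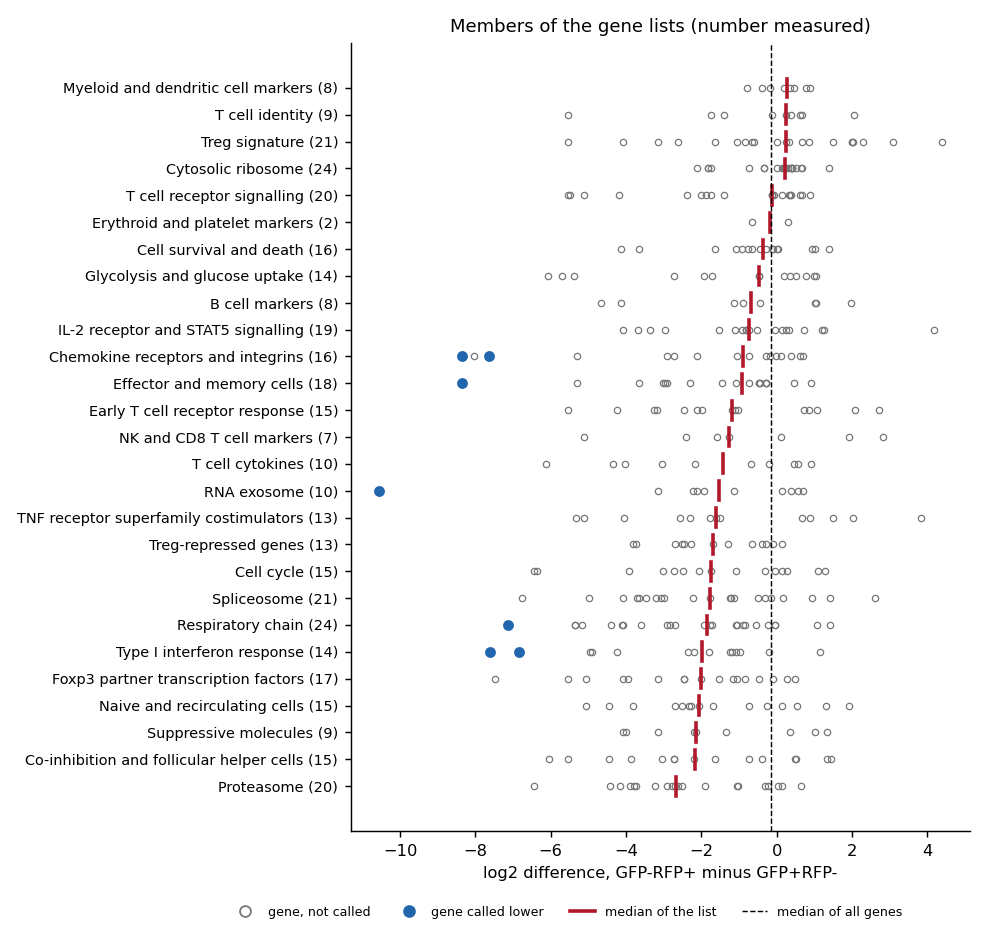
Log2 difference of GFP-RFP+ minus GFP+RFP- (horizontal) for each measured member of 27 gene lists (rows, with the number measured), ordered by the list's median (red bar); blue points were called lower and the dashed line is the median of all genes, -0.14. Proteasome genes have the lowest median, -2.66, and the called members are Itgb1, Pecam1, Exosc8, Ndufs1, Xaf1 and Ifit1.

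Markers of the labelled cell type were present in both groups: of 9 measured T cell identity genes 6 were detected on all 10 arrays, limma called 0 (1 lower at an unadjusted p under 0.05) and the median was 0.26. Cd4 read -5.67 to -0.57 in GFP-RFP+ and -2.56 to -0.53 in GFP+RFP-, detected on all 10 arrays. Markers of other cells were also read. Of 8 B cell markers limma called 0 (2 lower and 1 higher at an unadjusted p under 0.05). The list's median of -0.67 turned to 0.35 under the scaling on all probes and 0.46 with quantile normalization. Under these the medians of all genes were 0.87 and 0.24. In the main fit 5 of the markers were lower and 3 higher in mean. Their summed signal, relative to the 75th percentile, was 0.185 to 1.45 in GFP-RFP+ and 0.538 to 2.34 in GFP+RFP-, with Cd79b, a chain of the B cell receptor, detected on 2 and 5 arrays (difference -4.67 ± 1.51, SE; adjusted limma p 0.232). The 8 myeloid and dendritic cell markers held 0 calls in limma (1 higher at an unadjusted p under 0.05), 3 lower and 5 higher in mean with a median of 0.28, and summed to 10.0 to 26.5 and 8.50 to 14.9. Itgam, an integrin chain of myeloid cells, read 2.94 to 4.49 in GFP-RFP+ and 2.62 to 3.62 in GFP+RFP- on its brightest probe. That probe was detected on all 10 arrays, with a difference of 0.88 ± 0.37 (SE, adjusted limma p 0.337). The sum takes the brightest probe of each gene, and much of it was this Itgam probe. Other Itgam probes averaged -8.38 and -8.95 in GFP-RFP+, and the latter gave a difference of -2.90. The 7 NK and CD8 markers summed to 0.342 to 3.46 and 0.345 to 0.99, and the 2 erythroid and platelet markers to 0.00964 to 12.5 and 0.0722 to 4.40. No marker list was called in any member, and the part of such cells in the called genes was not tested.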

How the data were processed

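Agilent Feature Extraction 10.7.3.1 wrote the scanner files, per the submitters' processing notes. The deposited values used are its processed signal, a background-subtracted intensity per spot, with its flag for spots well above background, per the file headers. The authors' series table holds log2 values; how it was scaled is unstated in those sources, and it served as an alternative. A total of 3671 control spots per array and 3296 outlier spots were left out, and spots of a probe were averaged (55681 probes). Log2 intensities were set relative to each array's 75th percentile over 6610 probes detected on all 19 arrays. Probes detected on at least 4 arrays were kept, and the brightest of each gene was tested (20613 genes). RefSeq symbols named 27237 probes; the rest kept the array's name. limma 3.58.1 in R 4.3.3 fitted all 19 arrays with 1 mean per population, sharing 1 estimate of spread, and p-values were adjusted over all genes. Scripts were tested on simulated data. Array measures were compared by exact permutation.

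Genes named were Foxp3 and Il2, the 12 called genes with the largest difference in each direction that have a usual symbol and were detected on every array of the brighter group, and called or lowest-p members of 27 lists. The gene lists and the comparison were chosen with earlier results of these data known. "At least" folds set the bright group's mean against each dim array's lowest signal well above background. They take that mean as exact and are not confidence limits. They also hold for the main scaling and background only. Some alternatives gave log2 differences smaller than these bounds allow. The smallest were -6.54 for Exosc8, -4.74 for Msl3, -2.66 for Rnf2 and -2.22 for Timm9. Intervals are 95%. Alternatives covered scaling, background, filters, probes, variance models, slide, scan day, replicate number and single arrays left out. No spot was saturated (0), and the number of arrays limits the precision. Figures used matplotlib 3.10.9.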

Additional observations from a re-analysis of the deposited data

Results flagged for a closer look

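The levels of the genes named were checked in 110 groups of arrays. In 16 of the 110, 1 array lay further from the rest of its group than Dixon's 95% limit allows. Chance passes that limit in about 5% of groups. In GFP-RFP+ array 3 the higher levels were those of Tmem50a (-3.33), Itgb1 (-3.90), Tspan14 (-4.36), Ifit1 (-2.71), Il2ra (-3.43), Nfatc2 (-1.51), Hif1a (-6.48), Cd28 (-4.22), Mki67 (0.38) and Cd79b (-1.07), 10 of the 16. In GFP-RFP+ array 2 they were Pecam1 (-3.25) and Irf4 (-0.42). In GFP+RFP- array 4 Xcl1 (-11.22) and Psmd8 (-10.58) were low and Itgb2 (1.98) was high, and in GFP+RFP- array 1 Gypc (-1.97) was low. The genes share these arrays, so the 10 levels of array 3 are not independent of each other.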

How the results depend on the processing

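The count of 44 called genes became 8 with the 75th percentile over all probes, 16 (2 higher) with quantile normalization, 23 (2 higher) with normexp, 15 (2 higher) with the series table, 24 with no filter, 1 with probes detected on all 19 arrays, 72 (4 higher) with array weights, 11 against a log2 threshold of 1, 8 with the percent detected as a covariate and 29 (3 higher) with a common floor. With slide as a block it was 20, and within slide 1 limma called 0 (1410 at an unadjusted p under 0.05). Chosen after seeing the data, scan day as a block gave 21 and leaving out arrays under 30% detected gave 22 (2 higher). The higher calls, named after their values were seen, included Fam178b (normexp, common floor, array weights and the omissions of GFP-RFP+ array 3 and GFP+RFP- array 4), Tsc22d1 (quantile), Kcnk3 (series table), Sumf1 and Rhox3a (array weights) and Krt40 and Ppy (arrays under 30% left out). Single omissions gave 11 to 213 calls: 19, 14, 213 and 20 without GFP-RFP+ arrays 1 to 4, and 11, 16, 173 and 11 without GFP+RFP- arrays 1, 3, 4 and 5. The median of all genes, -0.14, was 0.87 with the percentile over all probes, 0.24 with quantile normalization, 0.36 with normexp and 0.14 with median scaling. The replicate block gave 20 calls; correlations of same-numbered arrays lay between -0.05 and 0.04 and none was its own number's best, so the numbers were not taken as pairs.

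The array difference in percent of probes detected ranged from -9.72 to -5.37 over single omissions and passed 0.05 without GFP-RFP+ array 3 (exact permutation p 0.0317); that of the 75th percentile ranged from -6989 to -4945. Genes detected in 1 group alone rose from 33 to 230 when 1 array could miss. Il2ra reversed with slide as a block (-0.03), array weights (-0.10) and 4 omissions (range over all omissions -1.15 to 1.45). Ikzf2 reversed within slide 1 (0.83), with the covariate (1.05) and without arrays under 30% detected (0.56), and Itgam with the mean of its probes (-1.01). The 35 called symbols stayed lower under each alternative that gave them a value, and 26 lost their call under some omission; the cause was not tested. Levels near background limit the size of most called differences.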
